A study of Mus musculus with 6 samples.

Results

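Nicotinic acetylcholine receptor subunits were followed as a gene family in the RNA of mouse tibias. The 10 members were chosen by symbol from the 16 nicotinic subunit genes of the mouse annotation, out of 55401 gene identifiers counted, and comprise 7 neuronal-type subunits (*Chrna4*, *Chrna5*, *Chrna7*, *Chrna9*, *Chrna10*, *Chrnb2* and *Chrnb4*) and 3 muscle-type subunits (*Chrna1*, *Chrnb1* and *Chrnd*). *Chrna4* led to the choice of this family through its difference between the genotypes compared below, so the differences of the members between genotypes are given as a description, without a test. RNA-Seq had been performed on tibias from male mice, 3 Atrx-cKO and 3 control, to ask which transcripts change in bone when the chromatin remodeler ATRX is deleted in the osteoblast lineage. Atrx-cKO mice were *Osterix-Cre; Atrxf/y* and control mice were *Atrxf/y*, so that the floxed allele was present in both groups and the transgene in Atrx-cKO mice alone. An effect of the transgene and an effect of *Atrx* deletion cannot be told apart in this design. Mice were 8 weeks old and had received doxycycline until 3 weeks of age, which holds back the Tet-off Cre. The Cre is expressed in preosteoblasts, whereas the RNA came from the whole pulverized tibia with its marrow, nerve and any attached muscle.

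Nicotinic receptors are ion channels built from 5 subunits around a central pore, which opens when acetylcholine binds. In the neuronal types, the α4 and β2 subunits form the receptor with the highest affinity for nicotine, α7 and α9 can form channels of a single subunit type, α10 joins α9, β4 pairs mainly with α3, and α5 is an accessory subunit that needs partners. Adult muscle receptors at the neuromuscular junction contain α1, β1, δ and ε, and the fetal form carries γ in place of ε. In bone, cholinergic fibers reach the periosteum and marrow, and bone cells as well as immune cells have been described to carry nicotinic subunits.

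The libraries held 50977777 to 70571655 reads counted on genes, and all values below are CPM (reads on a gene scaled to the library's total on genes, TMM-normalized) unless a count is named. A gene with 0 counts could still be present at 0.0425 to 0.0588 CPM before TMM normalization, the level of 3 counts. This allowance covers counting error alone. *Atrx* itself ranged from 153 to 171 CPM in Atrx-cKO and from 165 to 174 in control tibias, and a whole-gene count in whole bone does not separate the deleted part of the transcript, so it gives no check of the genotype labels. The library of control 3 stood apart through skeletal muscle markers: the 15 markers summed to 15121 CPM, which is 9.80 times the mean of the other 5 libraries (884 to 3055 CPM). *Myh4* had the largest part in this sum, at 4630 CPM. *Myh1* and *Myh2* were not highest in control 3, with 52.4 and 10.7 CPM there against 181 and 69.5 CPM in Atrx-cKO 1. Among 20636 genes that passed edgeR's expression filter, 3 were called higher in Atrx-cKO (0.0145%) and 0 lower (0.0%) with thresholds of 0.05 for the adjusted p and 1 for the size of the log2 fold change. DESeq2 gave an adjusted p to 25992 genes and called 10 higher (0.0385%) and 13 lower (0.05%). At an unadjusted p under 0.05, edgeR's test had 328 genes higher (1.59%) and 423 lower (2.05%).

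The promoter regions of 4 subunits are shown because they belong to the members that carry the account. *Chrna4* and *Chrna5* had the largest fitted differences in either direction among the 8 members that passed the expression filter. *Chrnb2* had the most reads, and *Chrna1* is the ligand-binding subunit of muscle. Each is the 250 bases before the RefSeq start on GRCm38.p6, written 5′ to 3′ on the strand of the gene. Capitals mark GGGCGG, the core of the GC box bound by SP1-type factors, for *Chrna4* and CANNTG, the E-box bound by myogenic and other basic helix-loop-helix factors, for the others, on either strand.
Chrna4 (chr2:181039178-181039427, minus strand): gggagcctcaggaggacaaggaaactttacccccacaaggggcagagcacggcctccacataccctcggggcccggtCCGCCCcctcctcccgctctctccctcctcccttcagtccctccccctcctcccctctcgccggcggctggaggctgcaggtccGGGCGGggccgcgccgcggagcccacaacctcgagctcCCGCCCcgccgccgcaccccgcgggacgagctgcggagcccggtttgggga
Chrna5 (chr9:54980630-54980879, plus strand): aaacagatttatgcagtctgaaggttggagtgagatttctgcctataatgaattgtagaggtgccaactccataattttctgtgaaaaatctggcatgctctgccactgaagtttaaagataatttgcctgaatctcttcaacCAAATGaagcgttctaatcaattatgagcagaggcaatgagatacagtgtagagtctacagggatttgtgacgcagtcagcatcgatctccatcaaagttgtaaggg
Chrnb2 (chr3:89764633-89764882, minus strand): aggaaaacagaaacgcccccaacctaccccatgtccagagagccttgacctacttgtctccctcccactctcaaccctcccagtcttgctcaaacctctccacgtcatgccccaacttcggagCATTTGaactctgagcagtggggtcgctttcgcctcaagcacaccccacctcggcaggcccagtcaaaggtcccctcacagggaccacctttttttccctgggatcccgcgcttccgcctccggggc
Chrna1 (chr2:73580339-73580588, minus strand): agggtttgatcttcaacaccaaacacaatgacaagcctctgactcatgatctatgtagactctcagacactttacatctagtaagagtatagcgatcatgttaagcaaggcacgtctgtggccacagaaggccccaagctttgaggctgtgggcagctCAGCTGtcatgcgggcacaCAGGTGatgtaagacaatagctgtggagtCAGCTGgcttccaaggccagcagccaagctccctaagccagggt

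The *Chrna4* region was the most GC-rich of these, with 74.4% G and C (percentile 95.4 of 32851 RefSeq promoters, whose median was 52.4%), 24 CpG dinucleotides against a median of 6, and 3 matches to GGGCGG, a motif held by 32.7% of all promoters. By contrast, the *Chrna5* region had 40% G and C, 3 CpG and 1 match to CANNTG. *Chrna5* has another RefSeq start, 608 bases downstream, whose region was 65.2% G and C with 4 GGGCGG matches. The *Chrna1* region held 3 CANNTG matches at 50.8% G and C, and that of *Chrnb2* held 1 at 59.6%, where 66.2% of all promoters had at least 1 such match. TGNGGTT, the motif of RUNX factors that govern the osteoblast lineage, was found in 12.6% of all promoters and in none of the listed regions of the 9 members with an entry. Matches to the 3 motifs did not overlap one another in these regions. The RefSeq start of *Chrna4* lies 4369 bases inside the gene as GENCODE M21 draws it, so the region shown is not upstream of the longest annotated transcript.

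*Chrna4* (ENSMUSG00000027577, chromosome 2 from 181018380 to 181043546) encodes the α4 subunit. It had 105, 29 and 54 counts in Atrx-cKO 1, 2 and 3, against 4, 13 and 1 counts in control 1, 2 and 3. On the CPM scale these are 1.80, 0.508 and 0.917 against 0.0701, 0.195 and 0.0210. Every Atrx-cKO library was above every control library, Atrx-cKO 1 was the highest, and in control 3 the single count was under the 3-count allowance. The Atrx-cKO mean was 1.07 ± 0.658 CPM and the control mean 0.0954 ± 0.0898 (SD, n = 3 each), and the fitted log2 fold change was 3.39 (standard error, SE, 0.74), or 10.5-fold. Pooled over libraries, 188 counts stood against 18, a rate ratio of 10.8 with a 95% interval of 6.65 to 18.6 that covers counting error only. Without Atrx-cKO 1 the log2 fold change was 2.80, and without control 2 it was 4.44. *Chrna4* was among the 10 genes called higher by DESeq2 and not among the 3 called by edgeR, whereas none of the other 9 members was called by either test with all 6 libraries. Since this contrast led to the choice of the family, nothing is read from these calls. In whole bone, fewer cells of a type and less RNA per cell cannot be told apart.

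The accessory subunit *Chrna5* (ENSMUSG00000035594, chromosome 9 from 54980880 to 55007779) differed in the opposite direction. It had 4, 0 and 15 counts in the Atrx-cKO libraries and 26, 58 and 63 in the control libraries. In CPM, Atrx-cKO tibias had 0.0684, 0 and 0.255 and control tibias 0.456, 0.871 and 1.32. The groups did not overlap, and Atrx-cKO 2 had no *Chrna5* count at all. The log2 fold change was -3.0 (SE 0.90), and the pooled counts were 7.48 times higher in control tibias (95% interval 4.62 to 12.8, counting error only). The value moved to -4.59 without Atrx-cKO 3 and to -2.43 without Atrx-cKO 2.

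**Figure D1:**
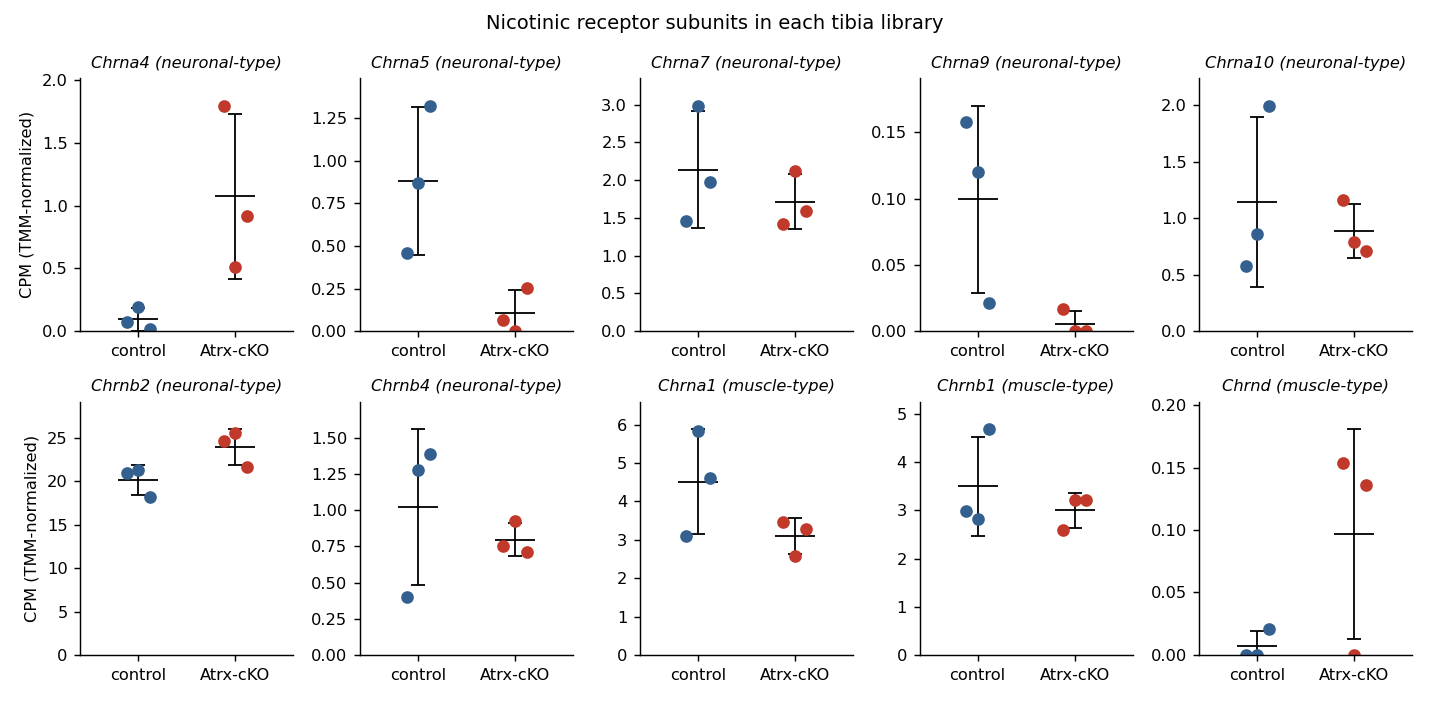
CPM of each nicotinic subunit (vertical axis, linear from 0, a separate scale per panel) in the 3 control (blue) and 3 Atrx-cKO (red) libraries, with the mean (horizontal line) and SD (bars, cut off at 0). *Chrna4* was above control in every Atrx-cKO library and *Chrna5* below, while the *Chrna7*, *Chrna10*, *Chrnb4*, *Chrna1* and *Chrnb1* panels show overlapping groups.

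*Chrnb2* (ENSMUSG00000027950, chromosome 3 from 89746195 to 89764632), the structural partner of α4, was the subunit with the most reads in every library. It had 24.6, 25.6 and 21.6 CPM in Atrx-cKO 1, 2 and 3 and 20.9, 21.3 and 18.2 CPM in control 1, 2 and 3. The lowest Atrx-cKO library was just above the highest control library. The means of 23.9 ± 2.07 and 20.1 ± 1.70 CPM (SD, n = 3 each) correspond to a fitted log2 fold change of 0.25 (SE 0.11), with 0.17 without control 3 and 0.31 without Atrx-cKO 3. The 3′ part of *Chrnb2* meets that of *Adar*, an RNA-editing enzyme gene on the opposite strand, over 1365 of its 8380 exonic bases (16.3%). *Adar* averaged 4574 counts in Atrx-cKO and 4225 in control tibias, and how reads were assigned to a strand in counting is not given in the sources used here, so reads of *Adar* within *Chrnb2* cannot be told apart from its own.

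Set per kilobase of exon, *Chrna4* remained far below its partner subunit in all 6 libraries. The ratio of *Chrna4* to *Chrnb2* in CPM per kb was 0.122, 0.0331 and 0.0708 in the Atrx-cKO libraries. In the control libraries it was 0.00559, 0.0153 and 0.00193. Atrx-cKO tibias thus held between 8.21 and 30.2 times as much *Chrnb2* as *Chrna4* on this scale, and control tibias between 65.4 and 519 times. Reads of *Adar* may be part of the *Chrnb2* level in these ratios and in the shares below. *Chrna4* made up 4.99%, 1.42% and 2.83% of all counts on the 10 members in the Atrx-cKO libraries (Wilson 95% intervals 4.14% to 6.0%, 0.993% to 2.04% and 2.17% to 3.67%). In the control libraries its share was 0.233%, 0.538% and 0.0613%, with upper interval bounds of 0.596%, 0.919% and 0.347%.

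The remaining neuronal-type subunits were scarce, and their groups overlapped except for *Chrna9*. *Chrna7*, the α7 subunit that macrophages and neurons share, had 83, 121 and 94 counts in Atrx-cKO and 83, 199 and 94 in control libraries, or 1.71 ± 0.364 and 2.14 ± 0.779 CPM (SD, n = 3 each). Its log2 fold change of -0.32 (SE 0.31) went to 0.00025 without control 2, the library with the most counts. *Chrnb4*, the partner of α3 in autonomic ganglia, had 44, 53 and 42 against 23, 85 and 66 counts, and a fitted log2 fold change of -0.35 (SE 0.46). Control 1 was the lowest and control 2 the highest of the 6 libraries by count, so the Atrx-cKO values lay inside the control range. *Chrna9*, known from cochlear hair cells, had 1, 0 and 0 counts in Atrx-cKO and 9, 8 and 1 counts in control libraries. It did not pass the expression filter, and its pooled ratio of 17.4 (control over Atrx-cKO, 95% interval 2.75 to 725) rests on a single Atrx-cKO count.

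*Chrna10*, the partner of α9, had 1.16, 0.788 and 0.713 CPM in Atrx-cKO and 0.578, 0.856 and 2.0 CPM in control libraries. The control 3 value was the highest, and the groups overlapped. The log2 fold change was -0.35 (SE 0.48), and it changed sign, to 0.29, without control 3 and was 0.04 with the muscle marker level as a covariate. *Chrna10* shares 1025 of its 2628 exonic bases (39.0%) with *Art1*, a gene for an ADP-ribosyltransferase of muscle that lies on the opposite strand. *Art1* had 9.39, 5.20 and 4.96 CPM in Atrx-cKO and 4.77, 5.0 and 21.2 in control libraries, highest in control 3 as well. As the strand setting of the counting is not given, reads of *Art1* within *Chrna10* cannot be told apart from those of *Chrna10*.

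Of the muscle-type subunits, *Chrna1* (ENSMUSG00000027107, chromosome 2 from 73563215 to 73580338) had 3.45, 2.57 and 3.29 CPM in Atrx-cKO and 3.10, 5.82 and 4.62 in control libraries. The control library with the lowest value fell among the Atrx-cKO libraries. The means were 3.11 ± 0.469 and 4.52 ± 1.36 CPM (SD, n = 3 each), and the fitted log2 fold change was -0.54 (SE 0.26). *Chrnb1*, the β1 subunit, had 2.58, 3.20 and 3.21 against 2.98, 2.82 and 4.68 CPM. Its log2 fold change of -0.22 (SE 0.24) became 0.035 without control 3, its highest library. *Chrnd*, the δ subunit, had 9, 0 and 8 counts in Atrx-cKO and 0, 0 and 1 in control libraries, and did not pass the expression filter. Its reads came from Atrx-cKO 1 and 3 with 1 exception, and both groups included libraries at 0.

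Of the 8 members that passed the expression filter, *Chrna4* and *Chrnb2* had every Atrx-cKO library above every control library (4.3% of all genes tested) and *Chrna5* had every one below (4.01%). *Chrna9* was below as well, by the difference of 1 count in Atrx-cKO 1 and 1 count in control 3 at unequal library sizes. The separation of *Chrna4* was fixed in advance, because this contrast led to the choice of the family. *Chrna4* (4, 13 and 1 control counts) and *Chrna5* (4, 0 and 15 Atrx-cKO counts) passed the filter through the group where they were higher. The number of separated members is therefore not read against these shares. Summed over the family, the 7 neuronal-type subunits had 28.5 ± 2.35 CPM in Atrx-cKO and 25.5 ± 1.85 in control tibias (SD, n = 3 each). Most of this was *Chrnb2*, and the other 6 neuronal-type subunits summed to 4.58 ± 0.553 against 5.38 ± 1.97 CPM. The 3 muscle-type subunits summed to 6.20 ± 0.429 against 8.02 ± 1.71 CPM. In each of these sums the Atrx-cKO and control libraries overlapped. *Chrnb2* took 53.1% to 71.6% of the counts on the 10 members in a library, and the muscle-type subunits took 16.2% to 27.2%. Counts of *Chrnb2* may include reads of *Adar*, so these sums and shares carry that limit.

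By CPM per kb of exon, averaged over the 6 libraries, *Chrnb2* came first at 2.63 ± 0.319 (SD, n = 6), and its range did not touch that of the next subunit. It was followed by *Chrnb1* at 1.28 ± 0.294, *Chrna1* at 0.869 ± 0.272 and *Chrna7* at 0.427 ± 0.131. *Chrna10* (0.386 ± 0.197), *Chrnb4* (0.244 ± 0.0992), *Chrna5* (0.159 ± 0.164) and *Chrna4* (0.116 ± 0.136) formed the lower part of the order. *Chrna9* (0.0174 ± 0.0226) and *Chrnd* (0.0158 ± 0.0221) were last. From *Chrnb1* downward the range of each subunit overlapped that of the next, so these neighbors were not separated by their spread. The levels of *Chrnb2* and *Chrna10* may include reads of *Adar* and *Art1*, so their places in this order carry that limit.

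**Figure D2:**
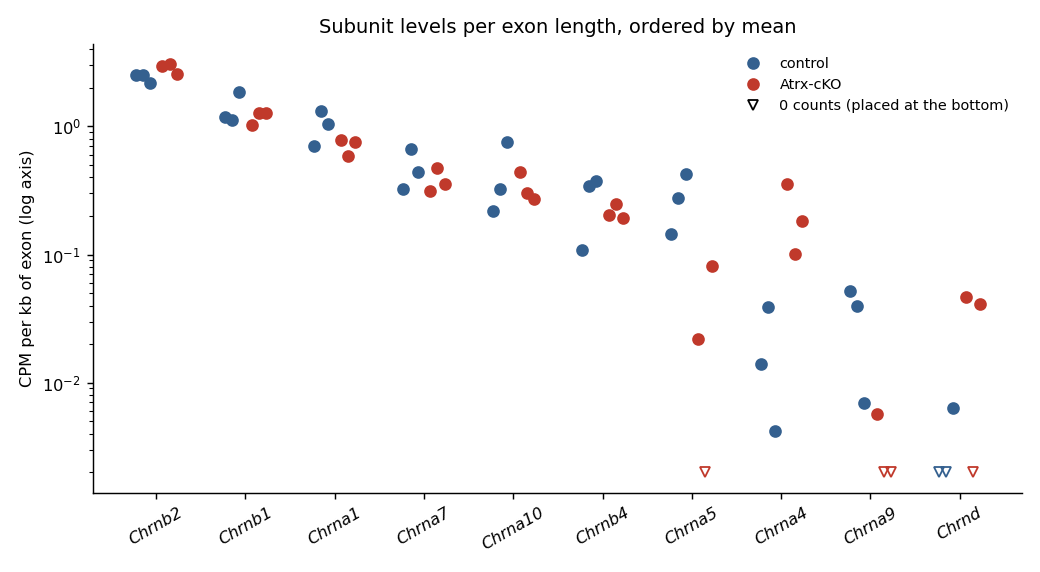
Level of each subunit in CPM per kb of exon (vertical log axis) in every library, ordered by the mean over the 6 libraries; open triangles at the bottom edge stand for 0 counts. *Chrnb2* lies above the other subunits in every library, and the Atrx-cKO points (red) of *Chrna4* lie above its control points (blue).

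Because control 3 had the highest sum of muscle markers, each subunit was set against a skeletal muscle score. This score was the mean log2(CPM + 0.5) of 15 markers of muscle fibers such as *Acta1* and *Ckm*. It includes *Myh1* and *Myh2*, which were not highest in control 3. The score was 7.15, 6.23 and 5.23 in the Atrx-cKO and 5.67, 5.78 and 8.89 in the control libraries. *Chrna1*, although a muscle gene, had Pearson's r = 0.27 (exact permutation p = 0.544, two-sided) and Spearman's rho = 0.31 (exact permutation p = 0.564) over the 6 libraries, and r was -0.20 without control 3 and Atrx-cKO 1, those farthest from the median score. *Chrnb1* had r = 0.67 (exact permutation p = 0.306) and rho = 0.029 (exact permutation p = 1), with r = -0.042 over the other 4 libraries. The relation of *Chrnb1* to the score therefore rested on the libraries left out. The closest to the score was *Chrna10*, with r = 0.96 (exact permutation p = 0.025) and rho = 0.89 (exact permutation p = 0.0333). After Benjamini-Hochberg adjustment over the 10 members these were 0.25 and 0.333. Without the same 2 libraries r was 0.35, so that this relation also rested on them. Reads of *Art1* in the bases it shares with *Chrna10* cannot be told apart in this relation. For the other 7 members r ranged from -0.41 (*Chrnb2*) to 0.55 (*Chrnb4*), and the adjusted exact permutation p was at least 0.681 for each in both measures. *Chrna4* had r = -0.19 (exact permutation p = 0.781), and its log2 fold change with the muscle score as a covariate was 3.39.

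**Figure D3:**
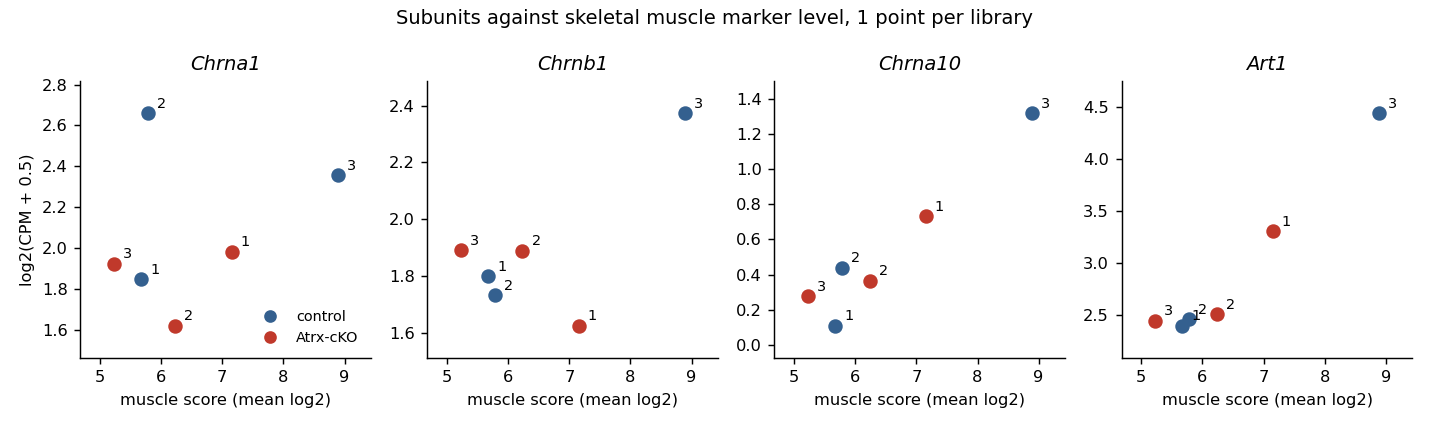
Expression, as log2(CPM + 0.5), of *Chrna1*, *Chrnb1*, *Chrna10* and *Art1* (vertical axes) against the skeletal muscle score (horizontal axis), with 1 point per library, numbered by replicate, in blue for control and red for Atrx-cKO. Control 3 lies far to the right at a score of 8.89, where *Chrna10* and *Art1* have their highest values.

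The other 6 nicotinic subunit genes were near or under the limit of detection. *Chrna2* had 16, 5 and 11 counts in Atrx-cKO and 9, 2 and 4 in control libraries, and *Chrna3*, the usual partner of *Chrnb4*, had 0, 0 and 8 against 0, 3 and 2. *Chrna6* (0 to 9 counts) and *Chrnb3* (0 to 1 count) were at 0 in most libraries, and the fetal muscle subunit *Chrng* had no count in any library. *Chrne*, the adult muscle subunit and the only one of the 6 to pass the expression filter, had 7, 10 and 0 counts against 9, 23 and 15, and a fitted log2 fold change of -1.46 (SE 0.88, Benjamini-Hochberg adjusted p = 0.992 in edgeR), which was -2.16 without Atrx-cKO 2 and -0.88 without Atrx-cKO 3.

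Genes that act with these receptors were taken as 7 lists of 42 genes in all, of which 28 passed the expression filter. In edgeR's test, 0 of the 28 were called in either direction. At an unadjusted p under 0.05 there were 4 lower and 0 higher, against 2.05% lower and 1.59% higher among all genes tested. The 4 became 1 without control 3, 2 without Atrx-cKO 2 or with the muscle marker level as a covariate, and 6 without control 1. DESeq2 called 1 of the 42 lower and 0 higher. Some of the 42, such as *Chrng* and *Slc18a3*, were given no adjusted p by DESeq2 and could not be called. Among all 25992 genes with an adjusted p, DESeq2 called 13 lower (0.05%) when both thresholds were applied. The median log2 fold change of the 28 was -0.21, and that of all 20636 genes was 0.0050. The gene called by DESeq2 was *Tmem35a*, which encodes NACHO, an endoplasmic reticulum chaperone needed to assemble α7 and other neuronal receptors. It had 136, 119 and 159 counts in Atrx-cKO and 196, 423 and 237 in control libraries. The Atrx-cKO libraries lay below the control libraries without overlap (4.01% of all genes tested). The means were 2.37 ± 0.310 and 4.92 ± 1.46 CPM (SD, n = 3 each). The log2 fold change was -1.05 (SE 0.25), with an unadjusted p of 0.00343 in edgeR. Its Benjamini-Hochberg adjusted p was 0.992 by edgeR and 0.0442 by the Wald test of DESeq2, so the call depended on the test. It was also lost in DESeq2 without any library but control 1, with adjusted p from 0.0920 to 0.569. In the folding and trafficking list, 6 of 6 genes passed the filter, with a median log2 fold change of -0.25. Of these, 3 were lower at an unadjusted p under 0.05 in edgeR, against 2.05% of all genes tested. *Ric3*, another assembly chaperone, had 7.20 ± 1.20 against 9.80 ± 1.80 CPM (SD, n = 3 each), a fitted log2 fold change of -0.44 (SE 0.19, adjusted p = 0.992 by edgeR). *Vsnl1*, a calcium sensor that brings α4β2 receptors to the surface, had a fitted log2 fold change of -0.71 (SE 0.29, adjusted p = 0.992 by edgeR). Its Atrx-cKO libraries lay below its control libraries without overlap (4.01% of all genes tested).

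Neuromuscular junction genes, which cluster the muscle receptor under the nerve ending, were fitted below 0 in 6 of 6 cases. These signs are not independent, as the genes were read in the same libraries. The median was -0.24, where that of all genes tested was 0.0050, and none of the 6 genes had an unadjusted p under 0.05 in edgeR. Among them, the kinase gene *Musk* had the largest log2 fold change, at -1.08 (SE 1.01, adjusted p = 0.992 by edgeR), and this changed to 0.21 without control 3. *Rapsn*, the scaffold of the muscle receptor, had 98, 160 and 201 against 133, 217 and 181 counts. Myogenic regulators were fitted below 0 in the 2 of 4 genes that passed the filter. *Myod1*, which drives muscle gene programs through E-boxes, had 16, 11 and 16 counts in Atrx-cKO and 18, 45 and 83 in control libraries, a fitted log2 fold change of -1.87 (SE 0.63, adjusted p = 0.992 by edgeR) that was -1.02 without control 3 and -1.33 with the muscle covariate. The highest *Myod1* count was in control 3, the library with the highest sum of muscle markers, and the part of muscle content in these differences was not tested.

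Modulators of the Ly6 family, small proteins that bind nicotinic receptors, passed the filter in 6 of 7 cases, with a median log2 fold change of -0.21 and none at an unadjusted p under 0.05. The largest was *Lypd6b*, at -0.76 (SE 0.66, adjusted p = 0.992 by edgeR), with -0.22 without control 2 and -1.21 without Atrx-cKO 2. Of the 8 genes that make, store and break down acetylcholine, 5 passed the filter, with a median of 0.030. *Chat*, the enzyme that makes acetylcholine, had 2 counts in Atrx-cKO 3 and none in the other 5 libraries, and the vesicular transporter *Slc18a3* had none in any. *Ache*, which breaks acetylcholine down and is also made by erythroid cells, was plentiful at 66.3 ± 7.67 CPM in Atrx-cKO and 62.1 ± 24.8 in control tibias (SD, n = 3 each). *Prima1*, the membrane anchor of that enzyme, had the largest log2 fold change of this list at -1.83 (SE 1.36, adjusted p = 0.992 by edgeR) from 0 to 0.420 CPM. Its reads in the Atrx-cKO group came from Atrx-cKO 1 alone, and the value was -6.86 without that library and between -2.38 and -1.26 without each of the other 5 in turn. Muscarinic receptors, the G protein-coupled family for acetylcholine, passed the filter in 2 of 5 cases, and *Chrm2* had a fitted log2 fold change of -0.19 (SE 0.66, adjusted p = 0.994 by edgeR) that turned to 0.18, 0.022 and 0.13 without Atrx-cKO 1, control 2 and control 3, respectively.

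**Figure D4:**
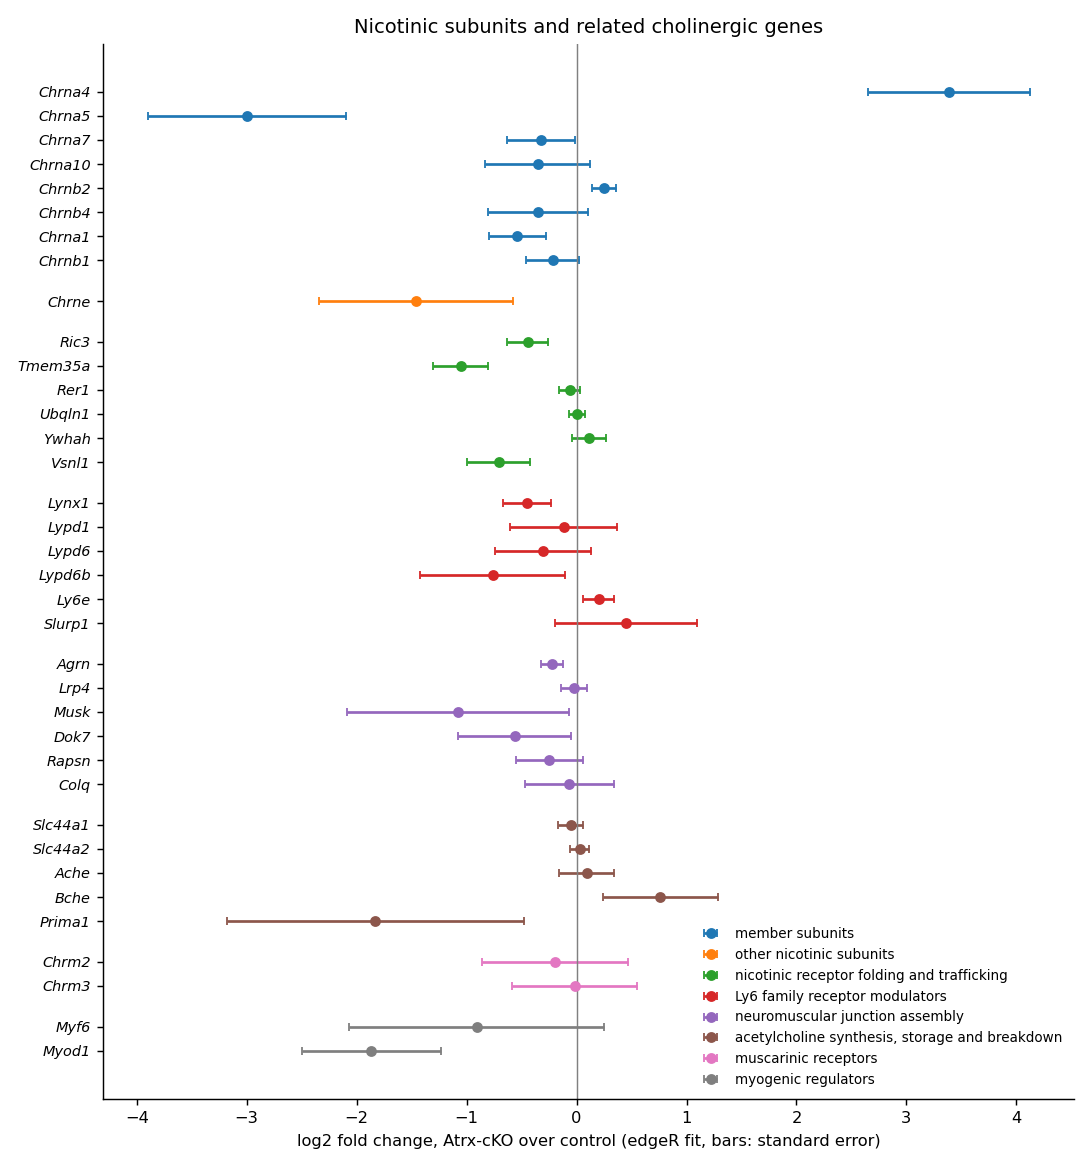
Fitted log2 fold change of Atrx-cKO over control (horizontal axis, points) with its standard error (bars) for the 8 subunits and 28 related genes that passed the expression filter, colored by list. *Chrna4* at 3.39 lies to the right of all other genes shown and *Chrna5* at -3.0 to the left.

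Markers of cells that carry these receptors were read in the same libraries. The 13 neuron markers summed to 16.7 to 19.1 CPM in Atrx-cKO and 21.0 to 24.8 CPM in control libraries, without overlap. All 8 neuron markers that passed the filter were fitted below 0, with a median log2 fold change of -0.55. Of these, 4 had every Atrx-cKO library below every control library (4.01% of all genes tested). By edgeR or DESeq2, 0 were called, and 2 were lower at an unadjusted p under 0.05 in edgeR (2.05% of all genes tested). The synaptic vesicle gene *Syt1* had 6, 5 and 10 counts against 38, 39 and 10, and *Dbh*, of noradrenergic neurons, had none in any library. *Tubb3* and *Uchl1*, which hold most of the summed level, overlapped between the groups, as did *Elavl4* and *Prph*. The part of neuron content in the *Chrna4* and *Chrna5* differences was not tested. The 9 Schwann cell and nerve markers summed to 122 to 152 against 129 to 138 CPM, and the 15 muscle markers to 884 to 3055 against 1017 to 15121 CPM, both with overlap. Markers of osteoblasts, the lineage in which Cre is expressed, were abundant, at 116549 to 120379 CPM in Atrx-cKO and 110291 to 186756 in control libraries. All 8 were fitted below 0 with a median of -0.27, where that of all genes tested was 0.0050. By edgeR or DESeq2, 0 of the 8 were called, and 1 was lower at an unadjusted p under 0.05 in edgeR (2.05% of all genes tested). Such 1-sided signs were not particular to osteoblasts. All 6 osteoclast markers were fitted below 0 (median -0.37), and all 5 markers each of B cells, neutrophils and erythroid cells above 0. Markers of a list were read in the same libraries, so their signs are not independent.

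Genes around *Chrna4* on chromosome 2 showed no difference of its size. Within 200 kb, 9 genes that passed the filter were compared, and their log2 fold changes ranged from -1.52 to 0.15 with a median of -0.17. None of the 9 was called by edgeR (lowest adjusted p = 0.992 with Benjamini-Hochberg adjustment) or by DESeq2 (lowest adjusted p = 1.0), and 0 had an unadjusted p under 0.05 in edgeR's test. *Col20a1*, a collagen gene that ends 0.017 kb from *Chrna4*, had 4.43 ± 1.57 CPM in Atrx-cKO and 5.81 ± 0.211 in control tibias (SD, n = 3 each), a fitted log2 fold change of -0.39 (SE 0.26). The value of -1.52 belonged to *Eef1a2*, a translation factor gene of muscle and neurons with 111 CPM in control 3 and 9.0 to 24.5 in the other 5 libraries, and it changed to 0.49 without control 3. Farther out, 376 kb from *Chrna4*, lies *Tcfl5*, a transcription factor gene and 1 of the 3 called higher by edgeR, with 374, 422 and 471 counts in Atrx-cKO and 18, 23 and 37 in control libraries. When libraries were left out in turn, edgeR kept the *Tcfl5* call without control 3 alone, and DESeq2 kept it in all 6 cases.

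**Figure D5:**
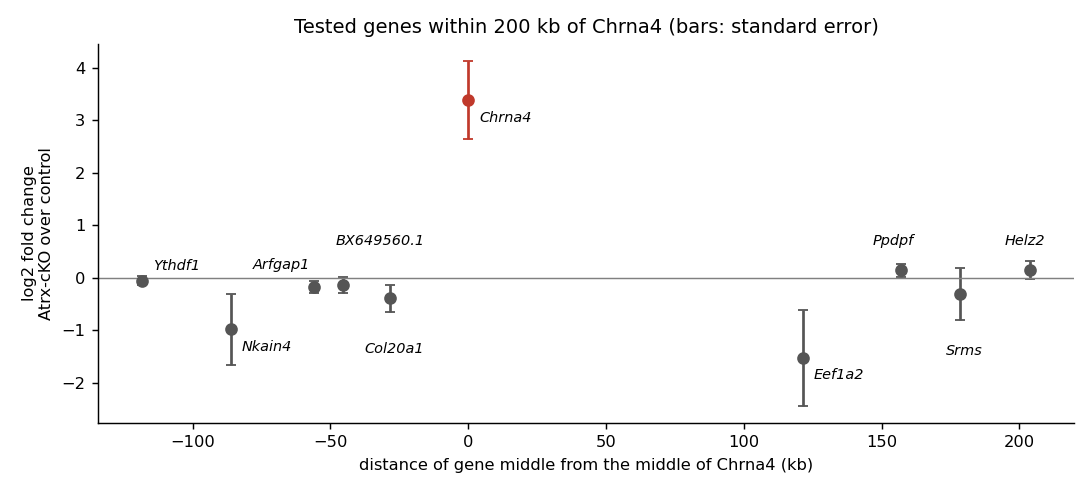
Log2 fold change of Atrx-cKO over control (vertical axis) with its standard error (bars) for *Chrna4* (red) and the 9 genes compared within 200 kb (gray), by the distance between gene middles in kb (horizontal axis). *Chrna4* at 3.39 stands above these neighbors, which lie between -1.52 and 0.15.

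The genes whose pattern over the 6 libraries was most like that of *Chrna4* were found by Pearson's r of log2(CPM + 0.5). They were *Slc35d2* (r = 0.990), *Clec4a4* (0.989), *Scarna2* (0.986), *Trmt13* (0.986) and *Gm15243* (0.983), and 156 of 20635 genes had r above 0.9. *Slc35d2*, a nucleotide sugar transporter gene, had 7.75, 6.69 and 7.27 CPM in Atrx-cKO and 5.96, 6.16 and 6.05 in control libraries. *Clec4a4*, a C-type lectin gene of myeloid cells, had 0.376, 0.245 and 0.306 against 0.105, 0.150 and 0.105 CPM. In both, as in *Chrna4*, Atrx-cKO 1 was the highest and Atrx-cKO 2 the lowest of the Atrx-cKO libraries. This order and the direction follow from the choice by r with *Chrna4*, so nothing is read from them. The differences between groups were far smaller than that of *Chrna4*, with log2 fold changes of 0.26 and 1.34.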

How the data were processed

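Polyadenylated RNA of whole tibias was sequenced in 6 libraries, 3 per genotype, each from a mouse named by its own label. The authors deposited raw read counts per Ensembl gene, 1 table per library, without normalization. The labels name GRCm38 and DESeq2. They also call the libraries strand specific, which was not checked here and is left uncertain. The aligner, counting program and its strand setting are not given in the sources used here. The summary entries of each table (51.6% to 52.4% on no feature) were kept out of library sizes, leaving 42.8% to 43.8% of counts on genes. Of 55401 identifiers, 55141 were named and placed by GENCODE M21, and promoter sequences are those of RefSeq on GRCm38.p6.

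Counts were fitted with edgeR 4.0.16 in R 4.3.3 (TMM, filterByExpr, glmQLFit and glmQLFTest, genotype alone), and p-values were adjusted over all genes tested by Benjamini-Hochberg. Standard errors were the fitted coefficient divided by the square root of the F statistic. DESeq2 1.42.0 was the alternative test. Libraries of a group differed beyond sampling noise (chi-square per degree of freedom 17.1 to 152). P-values measure the spread between these mice, and 0.1 is the smallest p that an exact permutation test of 3 against 3 could give. The fits were tested on simulated counts.

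The 10 members, the lists and the rule for named genes (members, other subunits, *Ric3*, *Tmem35a*, per list the gene with the largest change, neighbors within 200 kb and the 5 genes most like *Chrna4*) were chosen with earlier results of these data known. *Rapsn*, *Vsnl1*, *Tcfl5*, *Art1*, *Adar*, *Chat*, *Slc18a3*, *Ache*, *Syt1* and *Dbh* were singled out after their values were seen. Same-numbered libraries were not paired by the labels. Of the neighbors, 1 is not reported here. Normalization, filter, test, muscle covariate, replicate block and left-out libraries were varied.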

Additional observations from a re-analysis of the deposited data

How the results depend on the processing

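*Chrna4* was higher in Atrx-cKO in every alternative that kept it, with a log2 fold change of 2.80 to 4.44 when each library was left out in turn and 3.43 in DESeq2 (2.85 to 4.51 without each library, an alternative chosen after seeing the data). A filter of at least 10 counts in every library removed it. The number of genes called higher, 3 in edgeR's test, was 3 with 2 other normalizations or the muscle covariate, 1 with that filter, 10 in DESeq2 and 0 to 5 without each library in turn. Genes called lower numbered 0, with 1 without a filter on low counts, 13 in DESeq2 and 0 to 1 without each library. DESeq2 without Atrx-cKO 1, 2 and 3 and control 1, 2 and 3 called 7, 9, 11, 25, 8 and 12 genes higher and 14, 9, 14, 48, 6 and 5 lower. With the replicate number as a block (replicate block), 0 genes were called higher and *Chrna4* had 3.38. Deviations of same-numbered libraries had correlations of -0.0032, 0.11 and -0.10. The labels do not pair these libraries, and such correlations cannot exclude a factor they share. Pathway genes, called on an adjusted p under 0.05 whatever the fold change, were 0 lower in edgeR's test and 1 in DESeq2, and DESeq2 without control 1 called 1 higher (*Ache*, which would not pass a log2 fold change of 1) and 2 lower (*Tmem35a* and *Myod1*). *Chrna1* against the muscle score kept r of 0.16 to 0.29 with another pseudocount, CPM by library size or a summed score, and ranged from -0.13 (reversed, without control 3) to 0.77 without each library. Over the left-out libraries *Chrm2* ranged from -0.62, *Musk* from -1.99 and *Eef1a2* from -2.03 upward, and signs turned for *Chrm2* (0.18, 0.022 and 0.13 in edgeR, 0.19, 0.014 and 0.14 in DESeq2, without Atrx-cKO 1, control 2 and control 3), and without control 3 for *Musk* (0.21 in both) and *Eef1a2* (0.49 in both). The cause was not tested. With *Chrna4* at 1 to 13 counts in control libraries, depth limits its control level more than its Atrx-cKO level.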
